A study of Ovis aries with 3 samples.

Results

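The miRNAs described here are those of the imprinted DLK1-DIO3 domain of the sheep, centred on the miR-379/miR-410 cluster. They were chosen by name: every known sheep miRNA (prefix oar) whose number belongs to the cluster or to its neighbours in the domain, with any letter and arm. The rule used 43 numbers and no measured value. It found 82 of the 822 entries of the count files, and 4 of the numbers had no row. The 82 members came from 45 hairpins, 37 of which had both arms listed. A hairpin is the folded precursor from whose 5′ side (5p) and 3′ side (3p) the mature miRNAs of about 22 bases are cut. The members made up 38 arms of the 5p side, 42 of the 3p side and 2 entries (miR-323b and miR-323c) with no arm in the name.

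Small RNA was sequenced from 3 intestinal segments of Small tailed Han sheep: duodenum (DU), cecum (CE) and colon (CO). The same animals, 3 ewes of 11 months, gave RNA for all libraries, pooled by segment, and the methods place the colon sample in its proximal part. The labels name no treatment. The labels call the tissue mucosal epithelium. With 1 library per segment, pooled before sequencing, each test and interval here compares libraries by counting error alone and cannot show the spread between animals.

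The DLK1-DIO3 domain is imprinted, so each of its genes is read mainly from the chromosome of a single parent. The protein genes DLK1, RTL1 and DIO3 are expressed from the paternal chromosome, while the long noncoding RNAs and the miRNAs of the domain come from the maternal one. In sheep the domain is known for callipyge, a mutation that causes overgrown hindquarter muscles when it comes from the father and the maternal copy is normal. The miRNAs of the cluster lie close together and are thought to be cut from long shared transcripts. They are best known from the brain, the placenta and the embryo, and are generally scarce in adult tissues. Several were studied in neurons, where miR-134 and miR-485 act on dendritic spines and synapses. Mice that lack the cluster adapt poorly to the fasting that follows birth.

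The gene order of the sheep assembly ARS-UI_Ramb_v3.0 (RefSeq) matched this description. All 45 member hairpins lay on chromosome 18 after DLK1 and before DIO3. miR-493 and miR-665 came first, ahead of RTL1, and were followed by 5 other miRNAs of the domain that lie inside RTL1 (miR-431, miR-433, miR-127, miR-432 and miR-136). Next came miR-370 and miR-3955, and then a block of 46 hairpins from miR-379 to miR-323c, of which 41 were members and the other five belonged to the miR-376 family. That assembly is not the one the reads were mapped to, Oar_v4.0, so only the order was taken from it.

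The mature sequences of the members that the results turn on are printed below as the count files list them, 5′ to 3′ and with T for U. They are the 10 members with the most reads, those that passed the test between libraries or lay near its limits, both arms of miR-485, and members that share a seed. Capitals mark the seed, bases 2 to 8, which pairs with target RNAs and mostly decides which they are.
miR-379-5p: tGGTAGACtatggaacgtaggc
miR-411a-5p: aTAGTAGAccgtatagcgtacg
miR-409-3p: cGAATGTTgctcggtgaacccct
miR-493-5p: tTGTACATggtaggctttcatt
miR-3958-3p: aGATATTGcacggttgatctct
miR-370-3p: gCCTGCTGgggtggaacctggtct
miR-543-3p: aAACATTCgcggtgcacttcttt
miR-411a-3p: tATGTAACacggtccactaac
miR-494-3p: tGAAACATacacgggaaacctct
miR-3959-5p: gGTTGATCagagaacatacatt
miR-485-3p: gTCATACAcggctctcctctct
miR-485-5p: aGAGGCTGgccgtgatgaattcg
miR-323a-3p: cACATTACacggtcgacctct
miR-409-5p: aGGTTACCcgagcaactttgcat
miR-412-3p: tGGTCGACcagttggaaagtaat
miR-487b-3p: aATCGTACagggtcatccactt
miR-382-3p: aATCATTCacggacaacactt
miR-410-3p: aATATAACacagatggcctgt
miR-381-3p: aTATACAAgggcaagctctct
miR-379-3p: tATGTAACatggtccactaact
miR-411b-5p: tGGTCGACcataaaacgtacgt
miR-487a-3p: aTCATACAgggacatccagttt
miR-539-3p: aATCATACaaggacaatttcttt
miR-154a-3p: aATCATACacggttcacctatt
miR-154b-3p: aATCATACatggttgaccttttt
miR-329a-3p: aACACACCtggttaaccttttt
miR-329b-3p: aACACACCtggttaacctcttt
miR-329a-5p: gAGGTTTTctaggtctccgttt
miR-329b-5p: gAGGTTTTctgggtttctgtttc
The seeds of the members were mostly different from each other. Only 6 seeds were held by more than 1 member. ATCATAC was shared by miR-539-3p, miR-154a-3p and miR-154b-3p, and TCATACA by miR-485-3p and miR-487a-3p. The 3p arms of the neighbours miR-379 and miR-411a shared ATGTAAC, while GGTCGAC joined miR-412-3p, a 3p arm, with miR-411b-5p, a 5p arm. The other two, ACACACC and AGGTTTT, were shared by the 3p arms and by the 5p arms of miR-329a and miR-329b. Outside the group, miR-134-5p shared its seed with a predicted entry (novel_mir_108), and so did miR-134-3p (novel_mir_216). No other entry of the files carried a member's seed.

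A pair of short motifs recurred among the mature sequences on the strand printed. They were picked after the sequences had been read, so their counts are a description, and only the printed strand was searched. ACANGG, where N is any base, stood in 17 of the 42 3p members (40.5%), as in miR-411a-3p and miR-323a-3p, where it overlaps the end of the seed. It stood in 1 of the 38 5p members and in 10 of the 740 entries outside the group (1.35%). GGTTNNCC stood in 9 of the 38 5p members (23.7%), miR-409-5p among them, in 5 of the 42 3p members and in 1 of the 740 other entries. The likeness rarely covered a whole miRNA. Only the 3p arms of miR-329a and miR-329b shared a run of 16 or more bases, the shortest match that the counting accepted, so their reads may be split uncertainly between both. Reads could start or end a few bases away from the listed sequence and still be counted, so the seeds printed here are those of the listed miRNAs and not of each read. Reads with a mismatch to the hairpin were not counted.

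The members were scarce in all 3 libraries. The count files held 14462675 reads in DU, 15072945 in CE and 13769740 in CO, and members took 25905, 41487 and 34376 of them. Among the reads of known sheep miRNAs this was 0.236% in DU (Wilson 95% interval 0.233 to 0.239), 0.312% in CE (0.309 to 0.315) and 0.276% in CO (0.273 to 0.279). Levels are given below as normalized reads, a count per 1000000 clean reads that mapped to the genome. On this scale 3 reads, the fewest taken as visible, are worth 0.179 in DU, 0.176 in CE and 0.181 in CO. Intervals and this floor cover counting error only.

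Most members were detected, but few were abundant. At least 1 read was found for 71 members in DU, 74 in CE and 73 in CO. The 3 libraries shared 66 members, 7 were in 2 libraries, 6 in 1 library, and 3 (miR-329a-5p, miR-539-5p and miR-544-3p) had no read, which at 3 reads allows up to the floor given above. At least 10 reads were found for 39 members in DU, 48 in CE and 45 in CO. All of the 39 in DU reached 10 reads in the other two libraries too, and 33 members did so in none. Intervals were wide below 10 reads, but a few lay away from 0, as these examples chosen after their values were seen show. miR-543-5p had 2 reads in DU, 2 in CE and 12 in CO, a log2 ratio of CO to DU of 2.60 (95% interval 0.43 to 5.80). miR-487b-5p had 5, 14 and 3 reads, a ratio of CE to CO of 2.18 (0.34 to 4.63). Neither reached the level at which entries were tested.

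miR-379-5p, the arm at the head of the block, was the most abundant member in every library. It had 10119 reads in DU, 16917 in CE and 12099 in CO, or 604.7, 994.8 and 730.3 normalized reads. miR-411a-5p, from the next hairpin, had 5022 reads in DU, 7831 in CE and 6675 in CO. Together both arms took 58.5% of the member reads in DU, 59.7% in CE and 54.6% in CO. The level dropped steeply after them. miR-409-3p had 69.1 normalized reads in DU, 130.8 in CE and 141.7 in CO. miR-493-5p, known to target the growth factor receptor IGF1R, had 90.1 in DU, 116.1 in CE and 128.6 in CO. miR-3958-3p had 71.8 in DU, 102.3 in CE and 83.2 in CO. These values put miR-409-3p below miR-493-5p and miR-3958-3p in DU, but above both in CE and CO.

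The next 5 members lay between 33.4 and 75.2 normalized reads. miR-370-3p, known to target CPT1A, an enzyme of fatty acid import into mitochondria, had 51.9 in DU, 75.2 in CE and 68.8 in CO. miR-543-3p had 43.5 in DU, 57.9 in CE and 65.1 in CO, and miR-411a-3p had 36.5, 59.7 and 63.6. Both were lowest in DU and highest in CO. miR-494-3p had 37.5 in DU, 53.5 in CE and 46.9 in CO, and miR-3959-5p had 33.4, 54.4 and 40.0. These were lowest in DU too, but highest in CE. The 10 most abundant members together held 86.5% of the member reads in DU, 86.3% in CE and 85.4% in CO. miR-134-5p, the member best known from neurons, had 35 reads in DU, 39 in CE and 49 in CO.

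**Figure D1:**
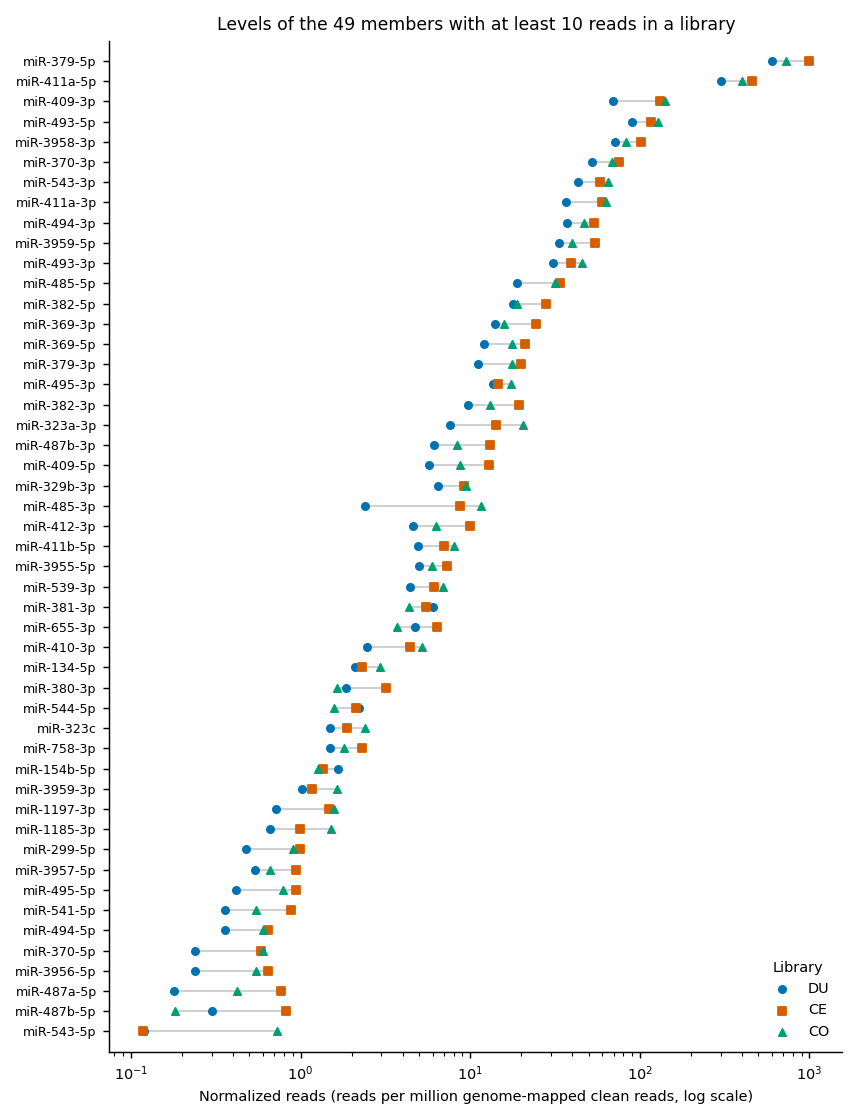
Normalized reads (horizontal axis, log scale, per 1000000 genome-mapped clean reads) of the 49 members with at least 10 reads in a library, ordered by total reads. Each point is 1 library, with circles for DU, squares for CE and triangles for CO, and a grey line spans the 3 libraries. miR-379-5p and miR-411a-5p stand above 300 in each library, and the DU circle lies at the left end in most rows.

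The group as a whole was lowest in DU and highest in CE. Its normalized reads summed to 1548 in DU, 2440 in CE and 2075 in CO. The log2 ratio of CE to DU was 0.66 (95% interval 0.63 to 0.68, 1.58-fold), that of CO to DU 0.42 (0.40 to 0.45, 1.34-fold) and that of CE to CO 0.23 (0.21 to 0.25, 1.18-fold). None of the sums reached the 2-fold limit used for calls here. The difference between CE and CO rested largely on miR-379-5p, since the other members summed to a log2 ratio of CE to CO of 0.10. Leaving out miR-411a-5p instead gave 0.24. Without both, the ratio was 0.06 (0.03 to 0.10), against 0.61 for CE to DU and 0.55 for CO to DU. In bulk tissue, a lower number of cells that carry a miRNA and less of it in each cell cannot be told apart.

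The other 14 entries of the domain, which the rule left out, had the same order by their sum. Their normalized reads added up to 502 in DU, 812 in CE and 699 in CO, with log2 ratios of 0.69 (CE to DU), 0.48 (CO to DU) and 0.22 (CE to CO). Most of these reads were miR-127, which lies inside RTL1 and targets its transcript, with 7603 reads in DU, 12531 in CE and 10305 in CO. The next ones did not all keep this order. miR-432 had 374 reads in DU, 606 in CE and 641 in CO, and a log2 ratio of CE to CO of -0.12. miR-433-3p had a ratio of -0.21, so both were highest in CO. miR-136 had 214, 271 and 207 reads. The miR-376 family, whose genes sit within the block, had 57, 70 and 66 reads in all.

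Markers of other cell types also differed between the libraries. Both muscle markers, miR-143 and miR-133, were measured, and their normalized reads summed to 275500 in DU, 429600 in CE and 399500 in CO. That sum was lowest in DU and highest in CE, with log2 ratios of 0.64 (CE to DU), 0.54 (CO to DU) and 0.10 (CE to CO), and miR-143 made up nearly all of it. miR-133, which is typical of muscle, had 236 normalized reads in DU, 534 in CE and 294 in CO. The mesenchymal marker miR-199a-3p ran in another order, with 3299 in DU, 2819 in CE and 1842 in CO. All 4 epithelial markers (miR-200a, miR-200b, miR-200c and miR-194) were present in each library, so the labelled epithelium was represented, though its share of the tissue was not measured. They summed to 28480 in DU, 20420 in CE and 33450 in CO, below the sum of the muscle markers in each library. They did not run together: miR-194 was highest in DU, with 9162, 4306 and 6071 normalized reads, while miR-200b was highest in CO, with 4450, 4395 and 8835. For this last marker the paper reports a different trend by quantitative PCR, with relatively high levels in the duodenum. Its order here thus rests on sequencing alone. The quantitative PCR of the paper also covered miR-133 and miR-194, and it does not list them among the miRNAs whose trends differed. Like miR-200b, both miR-200a and miR-200c were highest in CO, with 9655 and 8886 normalized reads there. The lymphocyte marker miR-150 had 289, 149 and 175 normalized reads. No marker was at 0. The part of these cell types in the differences between libraries was not tested.

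The duodenum and the cecum were compared to ask which members differ between the start of the small intestine and the blind pouch of the large one. Of the 39 members with at least 10 reads in both libraries, 36 had a ratio of CE to DU above 1. Their median log2 ratio was 0.62, with the middle part between 0.42 and 0.84, while the median over all 274 entries with as many reads was -0.17 and that of the 50 known sheep miRNAs outside the domain -0.30. In the exact Audic-Claverie test, a member was called where its p, Bonferroni-corrected over all entries tested, was below 0.01 and its fold at least 2. Members called higher in CE numbered 5 of the 38 tested, beside 12.1% of all 348 entries tested. At 13.2% this share was near that of all entries. Of the 50 known sheep miRNAs outside the domain, 3 (6.0%) were called higher in CE. The 95% interval of the ratio, which needs no 2-fold difference, lay above 0 for 28 of the 38 members, against 30.7% of all entries, and below 0 for none of them, against 51.7%. Most members were thus higher in CE by less than 2-fold.

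miR-485-3p differed most between DU and CE. It had 40 reads in DU, 149 in CE and 193 in CO, so that DU stood far below the other two libraries. The log2 ratio of CE to DU was 1.87 (95% interval 1.36 to 2.42, corrected p = 4.75e-13 in the exact Audic-Claverie test). The other arm of its hairpin, miR-485-5p, had 316 reads in DU, 577 in CE and 525 in CO and did not reach 2-fold.

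The other four called members were higher in CE than in both DU and CO. miR-409-5p had 96 reads in DU, 221 in CE and 144 in CO, with a log2 ratio of CE to DU of 1.18 (0.83 to 1.54). miR-412-3p, from the neighbouring hairpin, had 77, 169 and 104 reads, with a ratio of 1.11 (0.71 to 1.52). In each of them CO lay between the other libraries. miR-487b-3p had 103 reads in DU, 224 in CE and 138 in CO, with a ratio of 1.10 (0.75 to 1.45). miR-382-3p had 163, 332 and 217 reads, and its ratio of 1.00 (0.73 to 1.28) was barely 2-fold. miR-409-3p (0.92) and miR-323a-3p (0.90) lay just under that limit. None of the 5 was called by edgeR with an assumed coefficient of variation of 0.2 between animals.

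At the low end, 3 members had a ratio of CE to DU below 1, each with an interval that held 0. miR-154b-5p had 28 reads in DU, 23 in CE and 21 in CO, a log2 ratio of -0.31 (-1.17 to 0.54). miR-381-3p, which has been studied in neurons, had 101 reads in DU, 93 in CE and 72 in CO, a ratio of -0.14 (-0.56 to 0.28). The third was miR-544-5p, with 37, 36 and 26 reads and a ratio of -0.06 (-0.77 to 0.64).

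**Figure D2:**
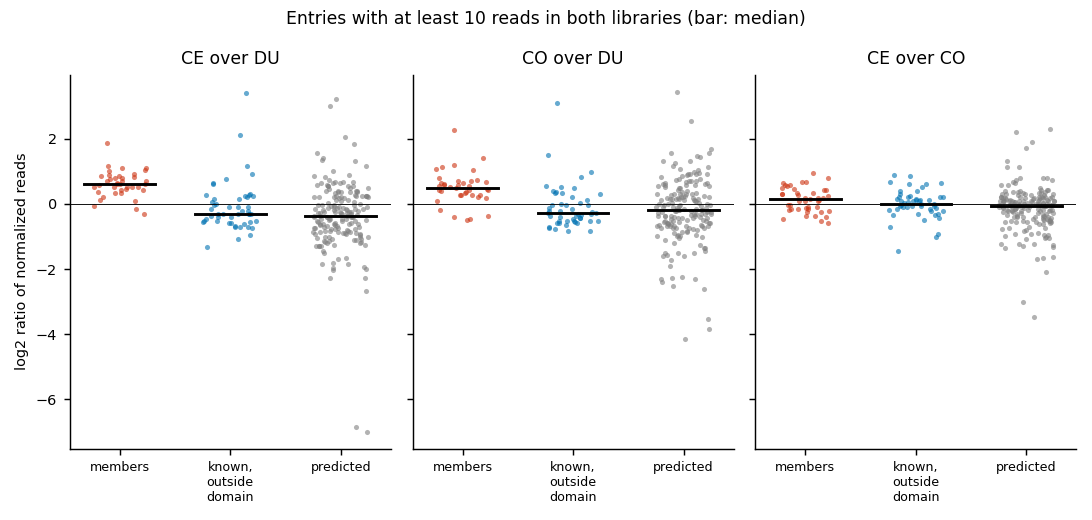
Log2 ratios of normalized reads (vertical axis) for entries that had 10 reads or more in each of the libraries compared, with a panel for CE over DU, CO over DU and CE over CO. Points are members (left, red), known sheep miRNAs outside the domain (middle, blue) and predicted entries (right, grey), and bars are medians. The median of the members is 0.62, 0.50 and 0.14 in the 3 panels, and lies above the other two medians in each.

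The comparison of duodenum and colon, the latter also part of the large intestine, uses the same DU library as the one before, so both share its error. Here 34 of 39 members with at least 10 reads in both libraries had a ratio of CO to DU above 1. The median log2 ratio was 0.50, against -0.09 over all 277 such entries and -0.28 over the 50 known miRNAs outside the domain. Members called higher in CO numbered 3 of the 39 tested (7.69%), a lower share than the 13.8% of all 363 entries called higher in CO. Counting calls in either direction, the members stayed at 7.69%, beside 33.9% of all entries. Of the 50 known miRNAs outside the domain, 2 (4.0%) were called higher in CO. The interval lay above 0 for 27 members, against 34.7% of all entries, and below 0 for 1, against 44.4%.

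miR-485-3p was again the most different, with a log2 ratio of CO to DU of 2.28 (1.79 to 2.81, corrected p = 5.31e-23 in the exact Audic-Claverie test). miR-323a-3p had 128 reads in DU, 243 in CE and 338 in CO, with no library near another. Its ratio of CO to DU was 1.42 (1.12 to 1.72). miR-409-3p had 1156 reads in DU, 2225 in CE and 2348 in CO, where CE and CO were close to each other, and a ratio of 1.04 (0.93 to 1.14). miR-410-3p, from the last hairpins of the block, had 41, 75 and 86 reads. At 1.08 (0.53 to 1.66) its ratio was larger than that of miR-409-3p, but with fewer reads its corrected p was 0.0232 in the exact test and it was not called. With the coefficient of variation of 0.2 assumed in edgeR, miR-485-3p was the only member called between DU and CO, and with 0.4 none was.

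The 5 members with a ratio of CO to DU below 1 were the 3 already named for low ratios in CE, and miR-380-3p and miR-655-3p. miR-544-5p had the lowest, at -0.49 (-1.28 to 0.27). miR-381-3p followed at -0.47 (-0.93 to -0.02), the only member whose interval lay below 0, with a corrected p of 1.00 in the exact test.

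Cecum and colon, both of the large intestine, were compared to show how far they differ from each other, with the same libraries as above. Of 44 members with at least 10 reads in both libraries, 26 had a ratio of CE to CO above 1, with a median log2 ratio of 0.14 against -0.04 over all 278 such entries. Counting calls in either direction, the exact Audic-Claverie test called 0 of 39 members, beside 22.7% of all 326 entries tested. Among the 50 known miRNAs outside the domain it called 2 (4.0%). Without correction 22 members had a p below 0.05, but none of them reached 2-fold, and edgeR, run as an exact test that assumes a coefficient of variation of 0.2 or 0.4 between animals, found 0 members below 0.05. The interval lay above 0 (higher in CE) for 15 members, against 34.4% of all entries, and below 0 (higher in CO) for 7, against 35.9%.

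The largest ratios of CE to CO were those of miR-380-3p and miR-655-3p. miR-380-3p had 31 reads in DU, 54 in CE and 27 in CO, a log2 ratio of CE to CO of 0.96 (0.27 to 1.69). miR-655-3p had 79, 108 and 61 reads, a ratio of 0.79 (0.32 to 1.26). For both, CE was highest and CO lowest, an order that no other member showed among the 39 with at least 10 reads in every library. Among the abundant members, miR-379-5p was higher in CE, with a ratio of 0.45 (0.41 to 0.48).

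Ratios on the side of CO were smaller. miR-1185-3p had 11 reads in DU, 17 in CE and 25 in CO, a ratio of CE to CO of -0.59 whose interval held 0 (-1.58 to 0.35). miR-323a-3p had a ratio of -0.51 (-0.76 to -0.27) and miR-485-3p of -0.41 (-0.73 to -0.10). So miR-323a-3p and miR-485-3p, called higher in CO than in DU, were also higher in CO than in CE by this interval, but by less than 2-fold.

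**Figure D3:**
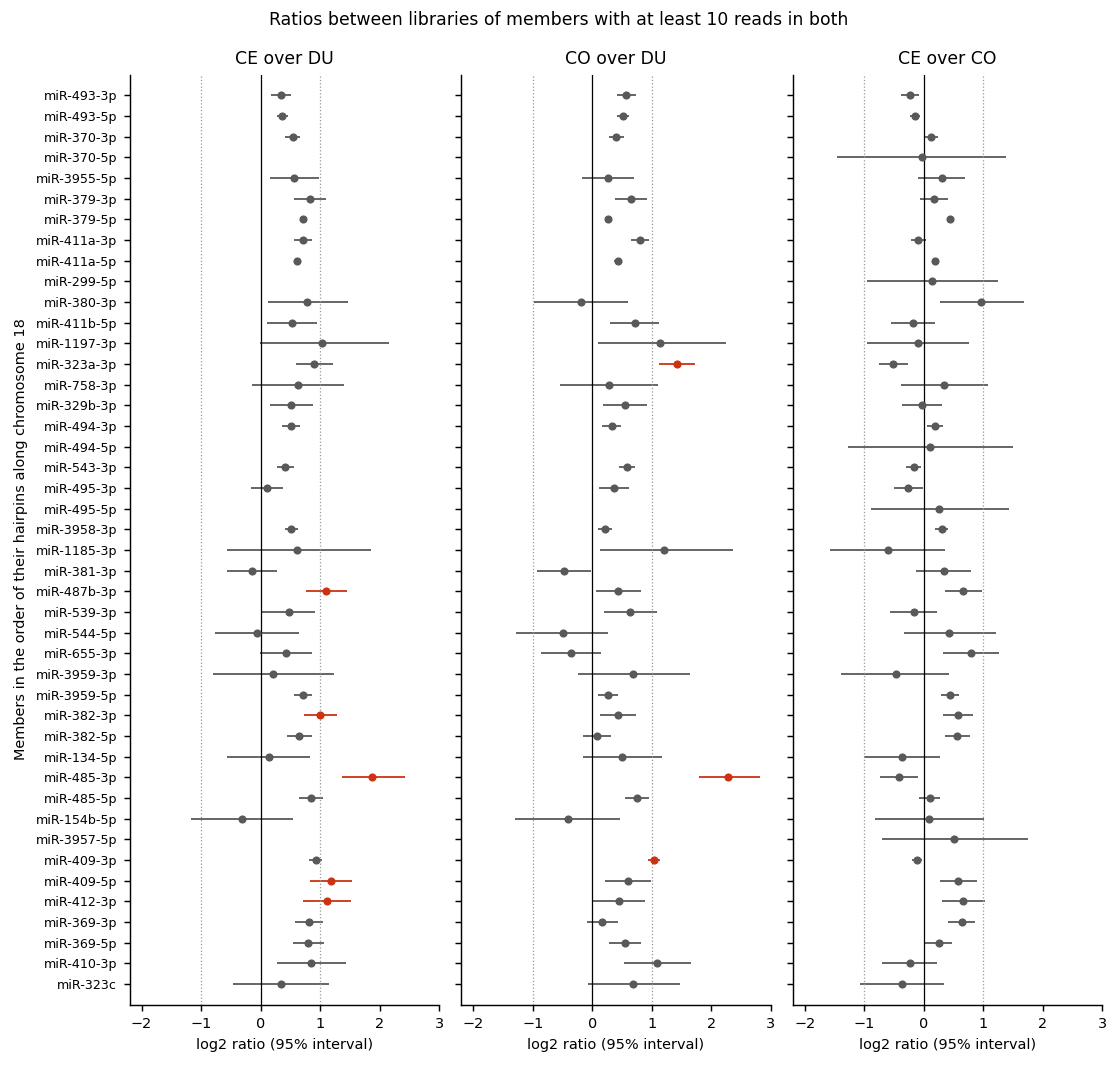
Log2 ratios of normalized reads with exact 95% intervals (horizontal axes) for members with at least 10 reads in both libraries, from the first hairpin of the domain at the top to the last at the bottom. Panels show CE over DU, CO over DU and CE over CO, red marks members called (5, 3 and 0 in the 3 panels), and dotted lines mark 2-fold. Most points lie right of 0 in the panels over DU, while in the panel of CE over CO they lie on both sides.

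The order of the 3 libraries differed between members. Of the 39 with at least 10 reads in each library, 34 were lowest in DU, and of these 17 were highest in CE and 17 in CO. The remaining 5 were lowest in CO, with 3 of them highest in DU (miR-154b-5p, miR-381-3p and miR-544-5p) and 2 in CE (miR-380-3p and miR-655-3p). Many of these orders rest on intervals that overlap.

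Members of the group did not all change by the same factor. When the ratio of each member was set beside that of all other members summed, its 95% interval lay above the value of the rest for 7 members and below it for 8 in the ratio of CE to DU, and included it for 24. For CO to DU the counts were 8 above, 6 below and 25 including, and for CE to CO 10, 12 and 22. miR-379-5p lay above the rest in CE over DU, at 0.72 (0.68 to 0.75) against 0.62. In CO over DU it lay below, at 0.27 (0.23 to 0.31) against 0.51. miR-409-3p lay above the rest against DU in both, at 0.92 against 0.64 in CE and at 1.04 against 0.39 in CO.

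The sums were also taken by position along the domain. The 3 members ahead of RTL1, from miR-493 and miR-665, summed to 121 normalized reads in DU, 156 in CE and 175 in CO. Nearly all of these reads came from miR-493. The log2 ratio of CE to CO was -0.17 (-0.24 to -0.09). miR-493-5p had a ratio of CE to DU of 0.37 (0.27 to 0.46) and of CO to DU of 0.51 (0.42 to 0.61). The 2 arms of miR-370 had ratios of 0.54 (CE to DU), 0.41 (CO to DU) and 0.13 (CE to CO). Those of miR-3955 had ratios of 0.55, 0.22 and 0.33. The 75 members of the block summed to 1369 in DU, 2201 in CE and 1825 in CO, with log2 ratios of 0.68, 0.41 and 0.27. Without miR-379-5p and miR-411a-5p the ratio of CE to CO in the block was 0.11 (0.07 to 0.14). Single hairpins of the block had ratios of CE to CO on both sides of 0, and those of miR-543 (-0.18) and miR-323a (-0.53) were at or below that of miR-493 (-0.17). Ahead of RTL1, the interval of CE to CO lay below that of the block, with or without miR-379-5p and miR-411a-5p. That value rests almost wholly on miR-493, and it lay within the range of single hairpins of the block. Such a range is wide and cannot exclude a difference by position, which was not tested.

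The arms of a hairpin are made in equal number, and usually only 1 of them is kept. The share of reads from the 5p arm does not depend on the size of the library. It could be compared in 26 member hairpins with at least 20 reads over both arms in each library. The 5p arm held most reads in 11 of them in every library and the 3p arm in 14, and in 19 hairpins a single arm held at least 90% in each library. Neighbours along the block used different arms. miR-379 and miR-411a, at its head, were 5p hairpins, and many of those that follow, miR-323a, miR-494, miR-543 and miR-3958 among them, were 3p hairpins. By sum, the 5p members had 1104 normalized reads in DU, 1752 in CE and 1407 in CO, and the 3p members 443, 686 and 666. Without miR-379-5p and miR-411a-5p, the 5p members summed to 199 in DU, 296 in CE and 274 in CO, below the 3p members in each.

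Arm shares were called different in few hairpins, tested by Fisher's exact test with Bonferroni correction over all sheep hairpins that could be compared. Most of those were members, so the background here is largely the group itself. Between DU and CE 1 of 26 member hairpins was called, beside 7.14% of all 28 tested. Between DU and CO it was 2 of 26, beside 7.14% of 28, and between CO and CE 2 of 27, beside 10.3% of 29.

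miR-485 had the largest shift. Its 5p share was 88.8% in DU, 79.5% in CE and 73.1% in CO, highest in DU and lowest in CO. The corrected p was 0.00335 for DU and CE and 4.44e-08 for DU and CO in Fisher's exact test. For CO and CE it was 0.154 in the same test, so that difference was not called. Both arms of miR-485 were higher in CE and CO than in DU, and the 3p arm, whose counts are given above, by more. miR-411a had a 5p share of 89.2% in DU, 88.5% in CE and 86.4% in CO, with CO the lowest. Fisher's exact test gave a corrected p of 3.80e-05 for DU and CO and of 0.000795 for CO and CE. For miR-409, a 3p hairpin, the 5p share was 7.67% in DU, 9.04% in CE and 5.78% in CO, and only CO and CE differed (corrected p = 0.000370 in Fisher's exact test).

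The more abundant arm changed between libraries in miR-369 alone. Its 5p share was 46.3% in DU, 46.2% in CE and 52.8% in CO. These values lie close to 50% and none of the differences was called. The plot of 5p shares shows the members near the ends of the scale in most hairpins.

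**Figure D4:**
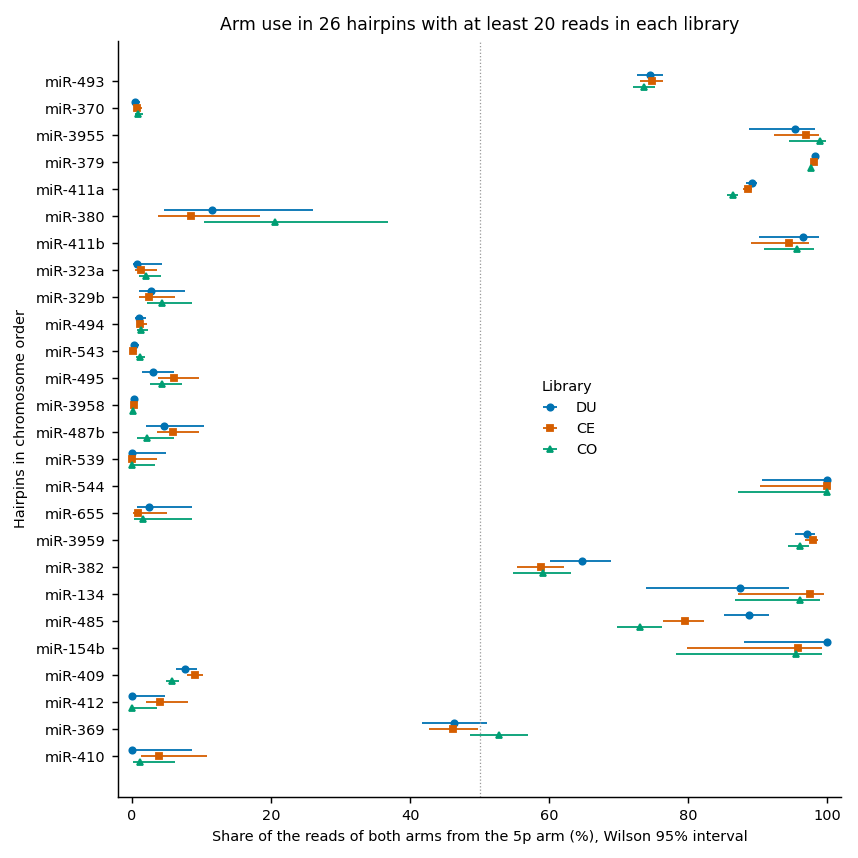
Share of reads from the 5p arm (horizontal axis, percent of the reads of both arms, Wilson 95% intervals) in 26 member hairpins with at least 20 reads in each library, in chromosome order from top to bottom. Circles are DU, squares CE and triangles CO, and the dotted line marks 50%. Most hairpins sit near 0% or 100%, miR-369 lies at 50%, and miR-485 spreads from 88.8% in DU to 73.1% in CO.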

How the data were processed

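Small RNA was measured in 3 pooled libraries. The deposited files hold raw read counts per miRNA entry, which the authors made by cleaning the reads, mapping them to the Oar_v4.0 genome and matching them with BLAST to miRBase hairpins without mismatch and to mature miRNAs over at least 16 bases. Known sheep miRNAs and predicted ones share the files.

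Counts were divided by the clean reads mapped to the genome as the study gives them, per 1000000. Entries that reached 1 normalized read in at least 1 of the libraries compared were tested with the Audic-Claverie exact test (2 times the smaller tail, Bonferroni). For log2 ratios in the whole table, 0.01 stood in for 0 normalized reads, but no ratio was taken for a member without reads in a library. Intervals of ratios come from the exact binomial split of reads. Shares have Wilson intervals. The code (Python 3.11.15, scipy 1.17.1) was tested on simulated data. edgeR 4.0.16 and DESeq2 1.42.0 (R 4.3.3) served for alternatives, since without replicates no quasi-likelihood test could be fitted. The other library sizes were all clean reads, the sum of the file, TMM and DESeq2 size factors.

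Members named with values were the 10 with the most reads, all called, the 2 highest and 2 lowest ratios per comparison, and hairpins with a called or changing arm. Members named beside them for a shared seed, a position or a value near a limit were added after their values were seen. The members, lists and markers were chosen with earlier results of these data known.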

Additional observations from a re-analysis of the deposited data

How the results depend on the processing

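Of 68 recomputed values, 61 were counted as unchanged. For counts this meant within 1.5 times, and for medians within the 95% range of the order statistics around the median. Sums counted as unchanged kept their direction but were not all close. Without the 2 members with the most reads, the log2 ratio of CE to CO fell from 0.23 to 0.06. Between CO and CE, 0 members were called under every setting, and these values count as unchanged too. The calls rest on counting error alone: with edgeR's exact test and an assumed biological coefficient of variation of 0.2 between animals, 0 members were called between DU and CE and 1 (miR-485-3p) between DU and CO, and with 0.4 there were 0 in both. The median log2 ratio of CO to DU was 0.60 with all clean reads and 0.66 with TMM as the library size. TMM moved the median of all entries by 0.12 (CE to DU) and 0.16 (CO to DU), and all clean reads by 0.10 (CO to DU). A library size shifts all entries alike, so the gap between the medians of members and of all entries, 0.78 (CE to DU), 0.59 (CO to DU) and 0.17 (CE to CO), is fixed by construction. Ratios close to 0 changed sign by this shift: miR-544-5p (CE to DU) under 3 of the library sizes, and miR-329b-3p and miR-370-5p (CE to CO) with DESeq2 size factors. Across the library sizes, filters, corrections and the added read, 4 to 7 members were called between DU and CE and 3 to 4 between DU and CO. miR-382-3p was no longer called with the file sum as library size or with 1 read added to both counts, and miR-410-3p joined between DU and CO with all clean reads, the file sum, TMM or the Benjamini-Hochberg correction. With at least 10 reads as the limit, 39 members in place of 66 were detected in all libraries. No paired analysis was possible because each segment has 1 library. Pooling hides the spread between ewes, and below 10 reads intervals are wide.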
